A study of Mus musculus with 2 samples.

Results

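The Wnt ligands, their receptors, the R-spondins with their receptors, beta-catenin, the TCF/LEF factors and Axin2 were examined in fetal mouse esophagus at E18.5, shortly before birth. Members were all probe sets whose single gene symbol in the platform annotation began with Wnt, Fzd or Rspo and a digit, or was 1 of 14 named symbols: Lgr4, Lgr5, Lgr6, Lrp5, Lrp6, Ror1, Ror2, Ryk, Lef1, Tcf7, Tcf7l1, Tcf7l2, Axin2 and Ctnnb1. This gave 96 of 45037 probe sets and 47 of 18193 genes. The rule itself uses no measured value, but it was chosen with earlier results of these data known. Tcf7 was not analysed here. The pattern also took in Fzd10os, a transcript from the strand opposite Fzd10 that is no receptor and is given separately.

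The study holds 2 Affymetrix arrays of total RNA, 1 per genotype. The control array came from wild-type BALB/c fetal esophagus, and the other from fetal esophagus of BALB/c embryos labelled null for both Myf5 and Myod, 2 genes whose products start the skeletal muscle program. By its title, the series asks how striated muscle comes to take the place of smooth muscle in the esophagus. The labels do not say how many embryos gave each RNA sample. With 1 array per genotype there is no replicate, no test between genotypes and no p-value, and each ratio below compares 2 RNA samples.

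Wnt proteins are secreted ligands that bind Frizzled receptors on nearby cells. With an Lrp5 or Lrp6 co-receptor, binding stops the destruction of beta-catenin, which then enters the nucleus and activates genes together with TCF/LEF factors. Ror and Ryk receptors carry Wnt signals that do not need beta-catenin, and R-spondins acting through Lgr receptors keep Frizzled proteins on the cell surface. In the foregut, Wnt signals act between mesenchyme and epithelium, and in embryonic muscle they take part in the onset of the myogenic program.

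Promoter sequence is shown for 3 members that read higher on the null-labelled array, Fzd5, Lef1 and Lgr4, and for Fzd7, which read lower. Each is the 250 bases before the RefSeq start (GRCm38.p6), lies outside the annotated span of its gene, and runs 5′ to 3′ on the gene's strand. Capitals mark matches, on either strand, to the letters that TCF/LEF factors can bind, namely CTTTGAA together with CTTTGAT as well as CTTTGTA together with CTTTGTT, or to the E-box letters CAGCTG and likewise CACCTG, which myogenic factors can bind. The windows are chr1:64737751-64738000 on the minus strand for Fzd5 and, on the plus strand, chr1:59481897-59482146 for Fzd7, chr3:131110047-131110296 for Lef1 and chr2:109917397-109917646 for Lgr4.
Fzd5: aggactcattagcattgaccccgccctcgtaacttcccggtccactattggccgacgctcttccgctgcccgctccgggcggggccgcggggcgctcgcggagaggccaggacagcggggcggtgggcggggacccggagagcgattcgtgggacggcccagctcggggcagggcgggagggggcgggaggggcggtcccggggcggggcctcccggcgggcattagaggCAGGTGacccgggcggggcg
Fzd7: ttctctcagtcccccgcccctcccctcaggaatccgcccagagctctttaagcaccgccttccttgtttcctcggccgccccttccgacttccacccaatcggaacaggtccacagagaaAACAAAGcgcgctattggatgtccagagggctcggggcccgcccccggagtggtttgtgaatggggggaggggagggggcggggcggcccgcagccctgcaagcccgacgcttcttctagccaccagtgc
Lef1: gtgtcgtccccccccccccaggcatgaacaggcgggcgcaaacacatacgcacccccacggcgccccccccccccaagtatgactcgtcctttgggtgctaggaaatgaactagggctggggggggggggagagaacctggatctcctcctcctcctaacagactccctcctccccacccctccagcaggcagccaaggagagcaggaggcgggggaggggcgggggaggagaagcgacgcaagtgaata
Lgr4: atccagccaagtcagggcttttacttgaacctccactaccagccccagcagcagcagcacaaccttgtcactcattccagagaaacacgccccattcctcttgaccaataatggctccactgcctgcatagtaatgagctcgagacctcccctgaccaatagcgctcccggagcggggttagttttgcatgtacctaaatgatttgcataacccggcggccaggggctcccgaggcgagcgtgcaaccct
Of these 4 windows, that of Fzd7 holds a TCF/LEF match, 130 to 124 bases before the start, and that of Fzd5 a CACCTG match on the opposite strand, 20 to 15 bases before it. The table had windows for 33 of the 47 member genes, 41 windows in all. TCF/LEF letters occurred in 12.2% of the member windows (Fzd7, Lef1 at a start further into the gene, Tcf7l2, Wnt11 and Wnt5b), against 14.8% of all 32851 windows. Of these matching member windows, only that of Fzd7 lies outside the annotated span of its gene. CAGCTG occurred in 9.76% of member windows against 13% of all, and CACCTG in 19.5% against 17.2%. The 1 window of Axin2, which lies inside the annotated span of the gene, held none of these letters. These are counts of letters in short windows and not binding sites.

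Values are MAS5 signals, 1 per probe set, on a linear scale that the authors brought to the same trimmed mean on both arrays. A low-signal limit of 489, the median of all probe sets on both arrays, was applied. Any lower signal was set to this limit ahead of the ratio, so a gene under it on 1 array has only a bound ("at least"). A gene below it on both arrays was not measured. Each gene took its brightest probe set, by the mean signal of both arrays. The only error to be had is how far probe sets of the same gene disagree, which as a pooled SD of the log2 ratio was 0.56 over 5455 genes and 0.61 over the 15 members with several measured probe sets. It leaves out variation between animals. All log2 ratios are null-labelled over wild type.

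The arrays differed widely in the signal of striated muscle markers. All 10 striated muscle markers read at least 2-fold lower on the null-labelled array (median log2 ratio -6.07), and their summed signal was 374543 against 8692. Of 7 smooth muscle markers 1 was higher and 0 lower, with 5 log2 ratios above 0 (median 0.35, summed signal 207992 and 328751). Of 7 squamous epithelium markers 0 were higher and 1 lower, with 3 above 0 (median -0.16, summed signal 386286 and 462288). Of 5 fibroblast markers 0 were higher and 0 lower, with 4 above 0 (median 0.21, summed signal 229057 and 319380). Single bright genes weigh heavily in these sums, such as Acta2 in smooth muscle (131127 and 242976) and Krt4 in squamous epithelium (173385 and 259124). Of 3 measured enteric neuron markers 1 (Ret) was lower, and of 3 glia and 3 endothelium markers 0 were 2-fold apart. Of 4 leukocyte markers, Ptprc was higher (585 and 5010.0) and C1qb lower. In the lung list Nkx2-1 and Scgb1a1 were below the limit on both arrays, Scgb3a2 was 7.66-fold lower, Sftpc read higher (1368 and 2299) and Sftpb had a bound of 0.70 (442 and 797). In bulk tissue, fewer cells of a type and less RNA per cell cannot be told apart, and the part of cell composition in the ratios below was not tested. Myf5 read 4072 and 496, while Myod1 read 2001 and 1698. Whether its probe set lies within the deleted stretch is unstated in the labels, so the second array is called null-labelled. The 3′ to 5′ signal ratio of the controls, a sign of RNA quality, was well above 1 for both controls on both arrays. It differed little for beta-actin (12.6 on the wild-type array, 14.2 on the other) and more for Gapdh (10.5 against 6.96). Its part in the ratios was not tested. The Y-linked gene Eif2s3y read 10.6 and 2402, while Xist, which is transcribed from the inactive X of females, read 42465 and 24254 and so was high on both arrays. The arrays thus differ in Y-linked signal, which cannot be told apart from genotype.

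The members as a whole leaned towards higher signal on the null-labelled array. Of 47 genes, 39 were measured, 30 of them on both arrays and 9 with a bound. At least 2-fold higher were 7 genes, Rspo2, Lef1, Lgr5, Ror1, Fzd5, Fzd2 and Lgr6, which is 17.9% of the measured members against 6.01% of all 13315 measured genes. At least 2-fold lower was 1 gene, Wnt10a, against 5.36% of all measured genes. The ratio was above 0 for 28 of 39 members against 56.6% of all genes, and the median log2 ratio was 0.41 against 0.086. For the 9 members with a bound, the sign was set by which array reached the limit. Among all genes, 2256 had a bound towards higher and 713 towards lower. No member was 4-fold apart, beside 0.158% of all genes 4-fold higher and 1.07% lower.

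These counts shift with the scaling of the arrays. With loess on signal, 6 of 41 measured members were higher and 3 lower, beside 3.45% and 7.06% of all genes. The median of all genes moved from 0.086 to -0.017. With quantile normalization the counts were 6 and 2 of 41, beside 4.16% and 6.17% of all genes. With ratios centred on the median of all genes they were also 6 and 2, of 39, beside 4.6% and 6.24%. Fzd2, Fzd5, Rspo2 and Lef1 were past 2-fold in each of these. Lgr4 and Tcf7l1 came past it with loess and quantile normalization, while Lgr5, Ror1 and Lgr6 were under it there, with loess values of 0.94, 0.81 and 0.82. The low-signal limit moved the counts more. Set at the 25th percentile it gave 10 higher and 6 lower of 44 measured members, beside 16.6% and 7.45% of all genes. Set at the 75th it gave 2 and 1 of 22 members measured, beside 1.85% and 4.8%. Without a limit, 11 of 47 members were higher and 6 lower, beside 19.5% and 9.37% of all genes.

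**Figure D1:**
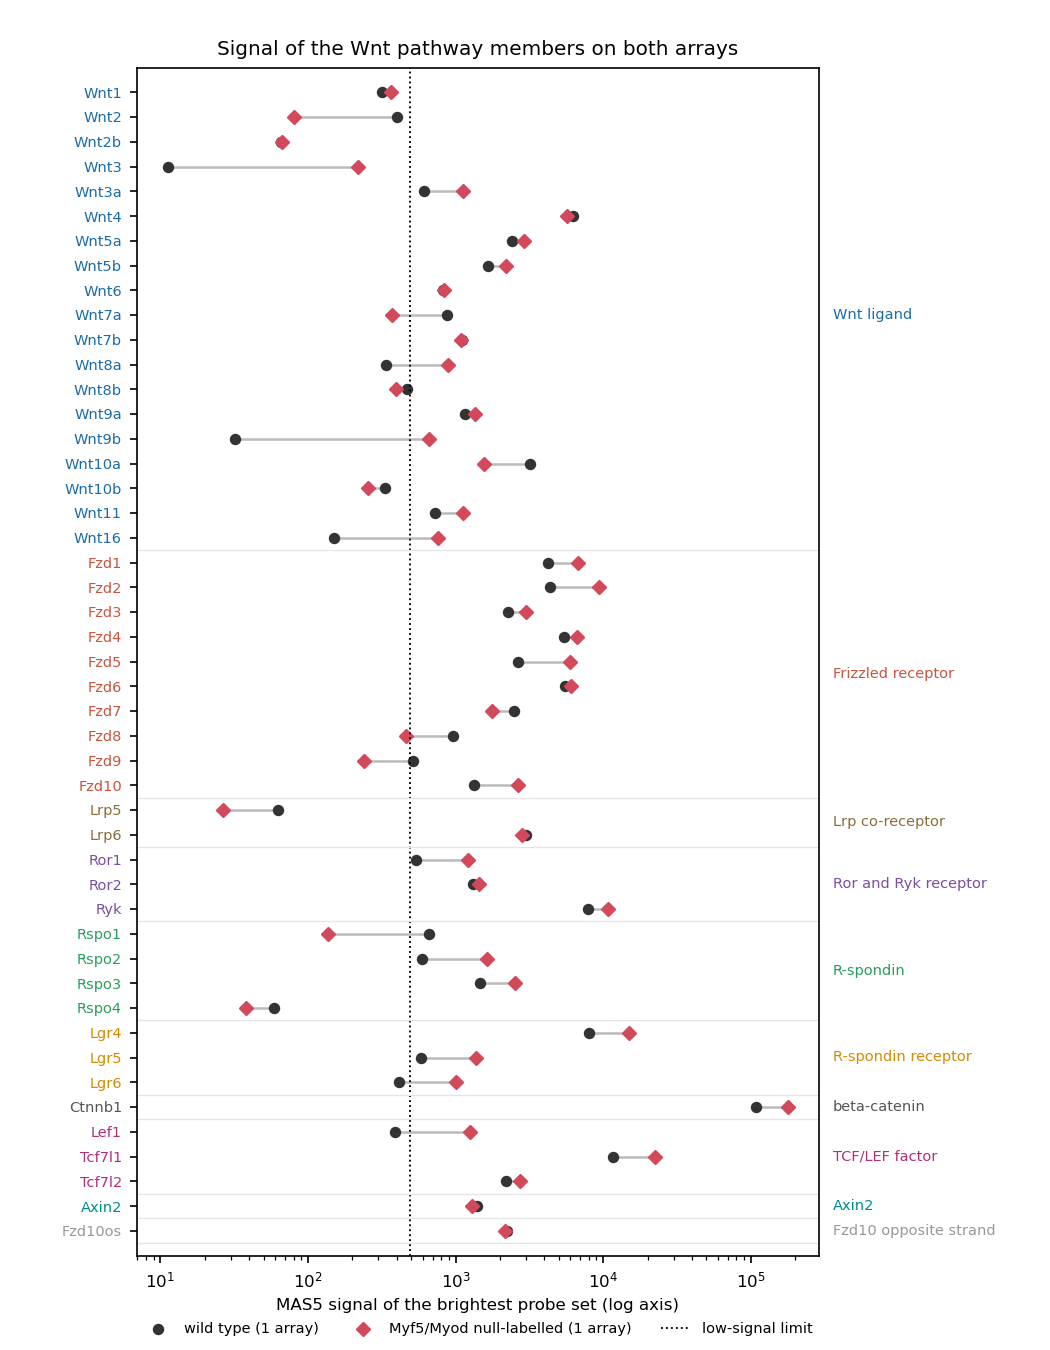
MAS5 signal of the brightest probe set of each of the 47 members (log axis) on the wild-type array (black circles) and the null-labelled array (red diamonds), 1 array each, grouped by role. The dotted line is the low-signal limit of 489; the 3 Lgr and 3 TCF/LEF genes all lie to the right on the null-labelled array, while Wnt10a lies to the left.

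Among the 19 Wnt ligands, 13 were measured, 0 were 2-fold higher and 1 was 2-fold lower, beside 6.01% and 5.36% of all measured genes. Their median log2 ratio was 0.27 against 0.086. Wnt10a, a ligand of stratified epithelia and their appendages, read 3216 in wild type and 1549 in the null-labelled sample, 2.08-fold lower at its only probe set. Further pairs of values are in this order. Its log2 ratio of -1.05 lay between -1.14 and -1.03 in all 8 alternatives. Its neighbour in the genome, Wnt6, read 819 and 831, so the pair did not differ alike. Wnt7a, a ligand that acts on muscle progenitors through Fzd7, read 881 and 373, at least 1.80-fold lower, and was past 2-fold with loess (log2 ratio -1.14).

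Wnt5a, which directs the elongation of the gut and other tissues, read 2413 and 2915, and its 2 other measured probe sets also had ratios above 0 (0.35, and a bound of 0.12). Wnt4, a ligand of kidney and gonad development, read 6250.3 and 5671 (log2 ratio -0.14), and its second probe set gave -0.11. Wnt5b, a close relative of Wnt5a, read 1654 and 2202, but its second probe set was slightly lower (log2 ratio -0.18). Wnt11, a ligand of cell movement and of early muscle fiber orientation, read 722 and 1118, 1.55-fold higher.

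Wnt3a, a ligand of the early embryo and the somites, read 609.96 and 1116, 1.83-fold higher. Wnt9a read 1164 and 1346, and Wnt7b, an epithelial ligand of the foregut and lung, read 1107 and 1082. For Wnt8a (339.7 and 882), Wnt16 (149.7 and 762) and Wnt9b (32.0 and 665) the wild-type signal lay below the limit, and the bounds were 1.80-fold, 1.56-fold and 1.36-fold higher. All of these 3 were past 2-fold under the 25th percentile limit, where 16.6% of all genes were also 2-fold higher. Below the limit on both arrays at their brightest probe sets were Wnt1, Wnt2, Wnt2b, Wnt3, Wnt8b and Wnt10b, with signals between 11.2 and 467. Another probe set of Wnt8b, dimmer by the mean of both arrays, reached 549 on the null-labelled array.

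All 10 Frizzled receptors were measured, 2 of them 2-fold higher and 0 lower (median log2 ratio 0.36), beside 6.01% and 5.36% of all measured genes (median 0.086). Fzd5, a receptor of endoderm-derived epithelia, read 2642 and 5949, 2.25-fold higher, and was past 2-fold in all 8 alternatives. Its second probe set was below the limit on both arrays (125 and 118). Fzd2, a receptor of mesenchyme and epithelium, read 4333 and 9372 at its brightest probe set, 2.16-fold higher. Its other probe sets did not follow, with 1931 and 1366 at one (log2 ratio -0.50) and 2338 and 2730.1 at the other (0.22), so its direction rests on which probe set is read.

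Fzd10 read 1343 and 2658, just under 2-fold higher (log2 ratio 0.99), and Fzd1 4261 and 6801 (0.67). Fzd3, known from axon guidance and planar polarity, read 2261 and 3006, and its 3 other measured probe sets gave 0.42, a bound of 0.47 and 0.00. Fzd4, a receptor of blood vessel growth, read 5393 and 6697 with its second probe set in the other direction (-0.27). Fzd6, a planar polarity receptor of the epidermis, read 5512 and 6044.

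On the lower side, Fzd7, the Frizzled of muscle progenitors, read 2473 and 1757, 1.41-fold lower, below 0 in all 8 alternatives. Fzd8 read 968 and 459, at least 1.98-fold lower, and passed 2-fold in 5 of the 7 alternatives that gave it a value. Fzd9 read 511 and 240.05, at least 1.04-fold lower. Fzd10os, the transcript opposite Fzd10, read 2216 and 2174, so it did not follow Fzd10.

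Of the co-receptors, Lrp6 read 2989 and 2819.8 (log2 ratio -0.084), and Lrp5 was below the limit on both arrays (62.7 and 26.6). Ror1, a receptor of Wnt5a, read 537 and 1209, 2.25-fold higher, and its second measured probe set gave 0.40 (533 and 703). Its relative Ror2 read 1316 and 1435. Ryk, a receptor that carries Wnt signals in axon growth, gave the widest disagreement between probe sets of any member. It read 7935 and 10824 at the brightest (log2 ratio 0.45), 1034 and 979 at another (-0.080), and 2699 and 647 at the last, 4.17-fold lower (-2.06).

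**Figure D2:**
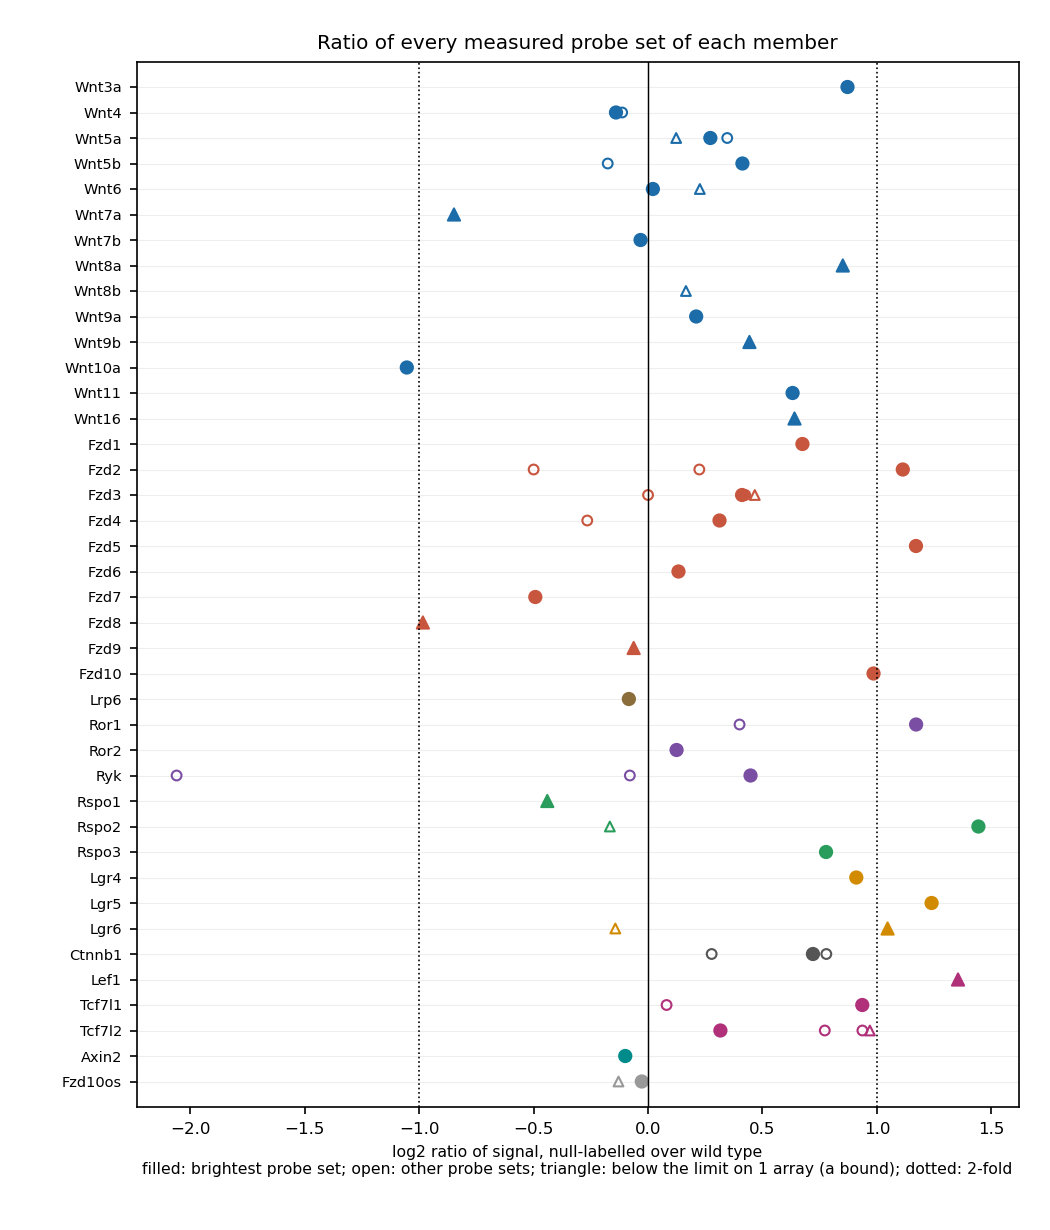
Log2 ratio of signal, null-labelled over wild type, for every measured probe set of each member; filled symbols are the brightest probe set of a gene, open symbols its others, triangles bounds, and dotted lines 2-fold. Tcf7l2 and Ctnnb1 keep all probe sets above 0, whereas Ryk, Fzd2 and Rspo2 spread to both sides.

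Of 4 R-spondins 3 were measured, with 1 of them 2-fold higher and 0 lower, beside 6.01% and 5.36% of all measured genes. Rspo2, the R-spondin of limb, lung and craniofacial mesenchyme, read 597 and 1623 at its brightest probe set, 2.72-fold higher. Its second probe set read 549 and 159 (a bound of -0.17), so the gene's probe sets disagreed, and with the limit at the 75th percentile its log2 ratio was 0.21. Rspo3, known from vessel and placenta development, read 1466 and 2514, 1.71-fold higher, and stayed between 0.69 and 0.79 (log2) in all 8 alternatives. Rspo1 read 664 and 137, at least 1.36-fold lower, and Rspo4 was below the limit on both arrays (58.7 and 38.3).

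All 3 Lgr receptors read higher at their brightest probe sets, 2 of them by at least 2-fold, beside 56.6% and 6.01% of all measured genes. The median log2 ratio of the 3 was 1.05, against 0.086 for all measured genes. Lgr4, the widely expressed R-spondin receptor, read 7968 and 14972, 1.88-fold higher. In that range of mean signal, 8000 to 16000, the median of all 897 genes was -0.12 and 1.56% were 2-fold higher. Lgr5, the receptor that marks stem cells of the gut epithelium, read 585 and 1379.8, 2.36-fold higher. Lgr6, which marks stem cells of the skin, read 413 and 1010.4, at least 2.07-fold higher. Its other probe set was brighter on the wild-type array and went in the other direction (540.1 and 286, a bound of -0.14). With the median of probe sets its log2 ratio was 0.45.

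Beta-catenin and the TCF/LEF factors also read higher. Ctnnb1, which encodes beta-catenin, read 108381 and 178584, 1.65-fold higher, and its other probe sets gave 0.78 (2161 and 3708) and 0.28 (684 and 829.7). It is 1 of 207 genes that read above 50000 in wild type, whose median log2 ratio was 0.18, and with quantile normalization its ratio was 0.16. Lef1, the TCF family member of developing epithelial appendages and mesenchyme, read 386 and 1251, at least 2.56-fold higher, and was past 2-fold in all 7 alternatives that gave it a value. Its second probe set was below the limit on both arrays (42.4 and 101).

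Tcf7l1, a TCF factor known mainly as a repressor in epithelial progenitors, read 11728 and 22441, 1.91-fold higher, with 3644 and 3854 at its second probe set (0.081). Tcf7l2, the TCF factor of gut epithelium and of muscle connective tissue, read 2199 and 2738 at its brightest probe set. Its 3 other probe sets gave 0.77, 0.94 and a bound of 0.97, so all 4 were above 0. Axin2, a feedback inhibitor widely read as a reporter of beta-catenin signalling, did not follow these genes. It read 1387 and 1294 (log2 ratio -0.10), was below 0 in all 7 alternatives that gave it a value, and its second probe set was below the limit on both arrays.

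How far the higher members rest on single probe sets differs by gene. Of the 7 members 2-fold higher, 3 (Fzd5, Lgr5 and Lef1) had no other measured probe set. For the other 4, 0 had another probe set past 2-fold, and for 1 (Ror1) the others had the same sign. With the median of each gene's measured probe sets, 3 of 40 members (Fzd5, Lef1 and Lgr5) were 2-fold higher and 1 lower. The shares of all genes were 4.55% and 4.03%. Without probe sets whose IDs end in _x_at or _s_at, 7 of 39 were higher and 2 lower (Ryk beside Wnt10a). The shares of all genes were 6.01% and 5.28%. Over the 15 members with several measured probe sets, all agreed in sign for 8 (53.3%), against 47.7% of 5455 genes.

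Ratios of all genes varied with signal level. Below a mean signal of 4000, 61.2% of all genes had a ratio above 0 and 7.24% were 2-fold higher, and 19 of 29 members were above 0 there with 5 of them 2-fold higher. Rspo2, Lgr5, Lef1, Ror1 and Lgr6 all lie in this range. At a mean signal of 4000 or above, 43.1% of all genes had a ratio above 0, 2.41% were 2-fold higher and 6.44% lower. There 9 of 10 members were above 0, 2 (Fzd5 and Fzd2) were 2-fold higher and 0 lower. Their median log2 ratio was 0.70 against -0.072 for all 3403 genes. The others above 0 were Tcf7l1, Lgr4, Ctnnb1, Fzd1, Ryk, Fzd4 and Fzd6, and Wnt4 was below. These are values of the brightest probe sets. Fzd2, Ryk and Fzd4 also had measured probe sets below 0 (-0.50 for Fzd2, -0.080 and -2.06 for Ryk, -0.27 for Fzd4).

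**Figure D3:**
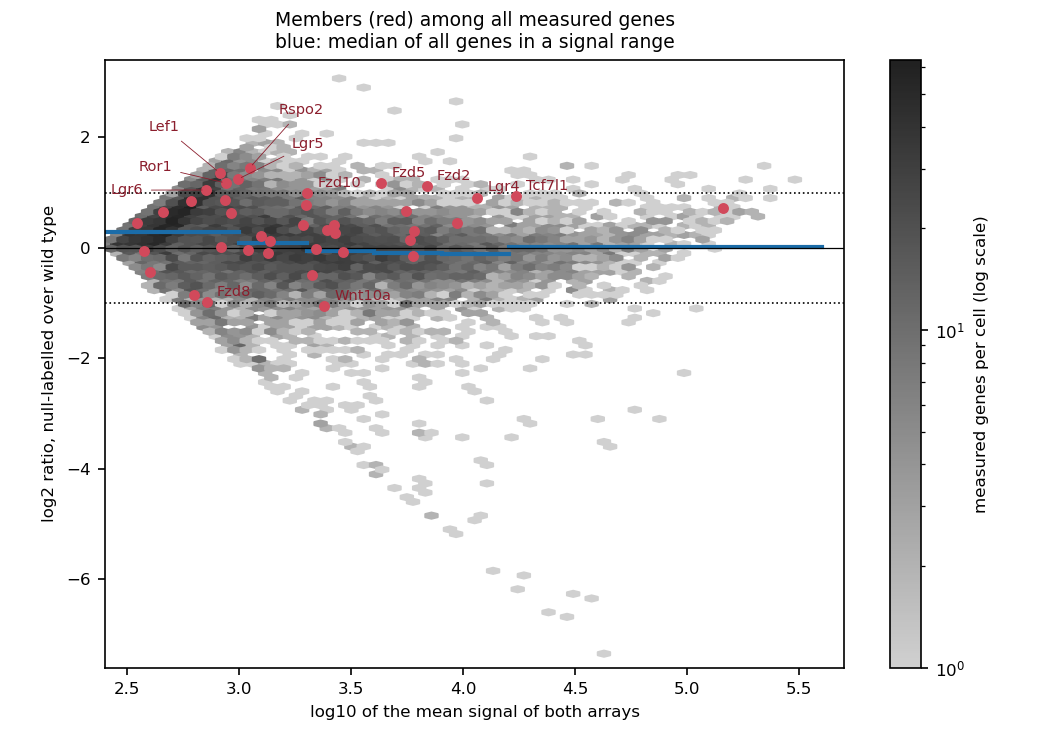
Log2 ratio, null-labelled over wild type, against the log10 mean signal of both arrays for 13315 measured genes (grey cells, darker for more genes) and the 39 measured members (red); blue lines are the median of all genes in each signal range and dotted lines 2-fold. Lgr4 (log2 ratio 0.91) and Tcf7l1 (0.94) sit above the blue line at high signal, and none of the members reaches the large negative ratios in the lower part of the plot.

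Other genes of the pathway were taken from a list by role and each at its brightest probe set. Of 96 listed genes 83 were measured, 3 were 2-fold higher and 9 lower (median log2 ratio 0.11), beside 6.01% and 5.36% of all measured genes and their median of 0.086; those named below within 2-fold were chosen after their values were seen. For ligand secretion, Wls (4300 and 4209) and Porcn (735 and 936) were within 2-fold. Of 13 genes of the destruction complex and its kinases, 0 were higher and 1 lower, the phosphatase subunit gene Ppp2r5d (1772 and 874). Of 7 signal relay genes, 5 were measured and 0 were 2-fold apart. Of the receptor turnover genes, Znrf3 read 2107 and 2941, 1.40-fold higher. Rnf43 read 16.7 and 545, which gives only a bound of at least 1.11-fold higher.

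Of 19 cofactors of TCF proteins, 1 was higher and 3 were lower, beside 6.01% and 5.36% of all measured genes. Bcl9, a coactivator that binds beta-catenin, read 897 and 1835, 2.05-fold higher. Cby1, which binds beta-catenin and holds it back from TCF factors, read 1561 and 529, 2.95-fold lower. The chromatin remodeller gene Smarca4 read 5831 and 2703 at its brightest probe set, but its second probe set gave 0.19. Sox17, an endoderm and endothelial factor, read 1232 and 425, at least 2.52-fold lower.

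Genes often used as readouts of beta-catenin signalling read in both directions. Of 21 genes 14 were measured, 1 was higher and 3 were lower, beside 6.01% and 5.36% of all measured genes, with a median log2 ratio of 0.11. The Notch ligand gene Jag1 read 1928 and 5024, 2.61-fold higher, with a second measured probe set at 0.25. The adhesion receptor gene Cd44 was lower at both measured probe sets, 2.77-fold (7159.5 and 2586) and 3.38-fold (4436 and 1314). Wif1, a secreted Wnt inhibitor, read 1973 and 22.5, at least 4.03-fold lower. Apcdd1, another inhibitor, read 15311 and 7536 at its brightest probe set, while its 5 others went both ways, from -0.38 to 0.41. The feedback genes Nkd1 (2834 and 3946) and Nkd2 (917 and 919.7) were within 2-fold, as was Axin2.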

How the data were processed

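The labels describe total RNA extracted with Trizol from fetal esophagus at E18.5, and biotin-labelled cRNA made from 6 µg of it for Affymetrix arrays. The authors deposited 1 linear signal intensity for each probe set and array. The submitters' processing notes name MAS5, without a version or settings. MAS5 combines the probes of a probe set and scales each array, and the trimmed mean (2% from each end) was 1500.01 on both arrays. The table holds no detection calls.

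Of 45101 probe sets, 64 controls were left out. Symbols came from GEO's platform annotation and were updated by Entrez ID with the RefSeq table of GRCm38.p6, which held the IDs of all 96 member probe sets; 932 probe sets with several symbols and 9160 with none were left out. The limit was 489, the 50th percentile. Genes were counted at 2-fold. The number of arrays limits the precision. Every member is named, and pathway genes that are 2-fold apart are named. Members, lists and thresholds were chosen with earlier results of these data known. Alternatives were centring, quantile normalization, loess (span 0.3), limits at the 25th and 75th percentiles, a pseudocount of 16 in place of any limit, each gene's median over probe sets, leaving out IDs ending in _x_at or _s_at, and a 4-fold threshold. Ratios and scalings were tested on simulated data in which bright probe sets were changed 4-fold. Changes near 2-fold and changes at low signal were not simulated. Python 3.11.15, numpy 2.4.6, pandas 2.3.3 and statsmodels 0.14.6 were used.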

Additional observations from a re-analysis of the deposited data

How the results depend on the processing

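Against 7 members at least 2-fold higher and 1 lower, the 4-fold threshold left 0 and 0, beside 0.158% and 1.07% of all genes. The higher count was 2 of 22 under the 75th percentile limit (Fzd2 and Fzd5), beside 1.85% of all genes. It was 3 of 40 with the median of probe sets (4.55%) and 11 of 47 with no limit and a pseudocount of 16 (19.5%). In the other 5 alternatives it was between 6 and 10, beside 3.45% to 16.6% of all genes. The lower count was 2 with centring, with quantile normalization and without _x_at and _s_at probe sets (there Ryk and Wnt10a). The shares of all genes were 6.24%, 6.17% and 5.28%. It was 3 with loess (7.06%), and 6 both under the 25th percentile limit (7.45%) and with no limit (9.37%). In both of the last, Fzd8, Fzd9, Rspo1, Wnt2 and Wnt7a joined Wnt10a. The cause was not tested. The median log2 ratio of the members was 0.31 with no limit, 0.25 with the median of probe sets and 0.32 without _x_at and _s_at probe sets. For all genes these medians were 0.17, 0.12 and 0.088. The members' median was above 0 in all 8 alternatives, where that of all genes ranged from -0.033 to 0.17. Of the 39 measured members, 33 kept their sign in every alternative that gave a value, 25 above 0 and 8 below. These include the 9 members with a bound, whose sign was set by which array reached the limit. The same count was not made over all genes. No member that was 2-fold apart changed sign. No paired analysis was possible because each group has 1 array, and no array could be left out. A signal below the limit of 489 on 1 array gives a bound only. Ror1, Lgr5 and Rspo2 have full ratios, but their wild-type signals (537, 585 and 597) lay not far above it.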

Other observations

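The branches of Wnt signalling that do not need beta-catenin were counted from lists by role, with members that are not 2-fold apart named after their values were seen. In the planar polarity branch, 17 genes were measured, 1 was 2-fold higher and 0 lower (median log2 ratio 0.096), beside 6.01% and 5.36% of all measured genes. The higher gene, Intu, which acts in cilium formation, read 422 and 999, at least 2.04-fold higher. The membrane components Vangl1 (1427 and 2757) and Prickle2 (1842 and 3586) came close to 2-fold higher, while Vangl2 (1331 and 1526) and Prickle1 (2355 and 1976) did not. In the calcium branch, 13 genes were measured, 0 were higher and 2 lower (median -0.27), beside the same shares of all genes. The lower genes were the phospholipase gene Plcb3 (1571 and 638, 2.46-fold) and the kinase subunit gene Camk2a (1096 and 319.7, at least 2.24-fold), whose second measured probe set was level (660 and 645). The other kinase subunits, Camk2b, Camk2d and Camk2g, had log2 ratios of -0.50, -0.44 and -0.73. On the higher side, 5 of the 13 genes had a ratio above 0. Among them were Plcb1 (3085 and 4856), Nfatc1 (876 and 1324) and Plcb2 (248 and 948, a bound of 0.95).

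Of 4 pairs of members that neighbour each other in the RefSeq annotation, 2 had values for both genes. Wnt6 and Wnt10a had log2 ratios of 0.021 and -1.05, and Wnt3a and Wnt9a 0.87 and 0.21. Of the pair Wnt9b and Wnt3, Wnt9b had a bound of 0.44 and Wnt3 was not measured, and neither Wnt1 nor Wnt10b was measured.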
